A study of Mus musculus with 6 samples.

Results

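The 10 genes described here encode the R-spondin receptors Lgr4, Lgr5 and Lgr6 and canonical Wnt target or feedback proteins, namely Axin2, Znrf3, Rnf43, Lef1, Tcf7, Nkd1 and Sp5. They were chosen by gene symbol, and all 10 were found among the 24421 symbols of the count table. RNA was sequenced from cochlear explants of wild-type mice dissected at postnatal day 2, after the modiolus, the tectorial membrane and the anlage of the stria vascularis had been taken off. Neomycin, an aminoglycoside toxic to sensory hair cells (HCs), was given at 1 mM for 6 h after 12 h in culture, and the explants were kept for a further 5 days with EdU at 10 μM. There were 3 control and 3 neomycin samples, each RNA from 6 to 8 cochleae. The sample labels carry the same protocol text, with neomycin, for all 6 samples, and the samples labelled control were read as explants that had not received it. Nothing in the labels says whether samples of a group came from separate cultures, so the p-values measure the spread between these samples, which may be technical.

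Canonical Wnt signaling works through β-catenin, which is degraded in the resting cell and enters the nucleus when a Wnt ligand binds a Frizzled receptor and its co-receptor LRP5 or LRP6. There it acts with transcription factors of the TCF/LEF family. The ubiquitin ligases ZNRF3 and RNF43 remove Frizzled from the cell surface, and R-spondins, bound to an LGR receptor, clear these ligases and so raise the response to Wnt. Many targets of the pathway, such as Axin2, Nkd1, Znrf3 and Rnf43, restrain it in turn. In the neonatal cochlea, Lgr5 marks a subset of supporting cells (SCs), among them inner pillar cells and some Deiters cells, that can divide or become HCs, and Wnt activation raises their division.

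Total counts ran from 50471116 to 66068108 per sample. Every one of the 10 genes passed the filter on low counts, with 370 to 11396 counts per gene and sample, so none was near the limit of detection. Levels are given as CPM, read counts relative to the TMM-scaled library size. Differences are log2 fold changes (log2FC) of neomycin over control, with the standard error (SE), from edgeR's quasi-likelihood test, adjusted by Benjamini-Hochberg over the 15988 genes tested. A gene was called at an adjusted p-value under 0.05.

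SC markers were present in all samples. Sox2, a transcription factor of SCs, had a control level of 79.3 ± 1.01 CPM and a level of 91.9 ± 9.40 CPM after neomycin (SD, n = 3). The 20 SC genes listed summed to 4530 to 5018 CPM in control and 5389 to 5508 CPM after neomycin. Of these 20, 7 were called, where 29.0% of all genes tested were called, 16.1% lower and 12.9% higher. The median log2FC of the SC genes was -0.042, and S100a1 alone had a mean of 1561 CPM in control and 2144 CPM after neomycin. S100a1, Gjb6 and Fabp7 were higher, with log2FC values of 0.46, 0.42 and 0.30, and Prox1, Fgfr3, Notch1 and Jag1 were lower, with -1.46, -0.66, -0.32 and -0.31. Of 22 HC genes, 21 were called lower, and their summed level went from between 983 and 1129 CPM to between 318 and 393 CPM. Of 8 endothelial genes, 6 were called lower, with a median log2FC of -1.94 and a summed level of 281 to 315 CPM in control and 267 to 317 CPM after neomycin. Most of this sum was Emcn, which was not called, with a mean of 252 CPM in control and 273 CPM after neomycin. Further, 5 of 10 macrophage genes were called higher, with a summed level of 90.3 to 119 CPM in control and 128 to 158 CPM after neomycin. Of 10 neuron genes, 4 were called lower and 1 higher, with a median log2FC of -0.86 and a summed level of 430 to 547 CPM in control and 423 to 505 CPM after neomycin. The largest part of this sum was Gata3, which was not called, with a mean of 253 CPM in control and 277 CPM after neomycin. In such bulk samples, fewer cells of a type and less RNA per cell cannot be told apart.

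After neomycin, 3 of the 10 genes were called, all of them lower (edgeR). These were Lgr6, Lgr4 and Axin2. Among all genes tested, 29.0% were called in either direction and 16.1% were called lower, so the share of 3 in 10 was near the background. With a fold change over 1.5 as a second requirement, Lgr6 alone was called, 1 of 10 genes lower against 6.6% of all genes tested, and 0 of 10 higher against 2.24%, or 8.84% in either direction. The other 7 genes were not called, and all 7 had overlapping groups. The groups were apart for the 3 called genes, where they were apart for 43.5% of all genes tested. The median log2FC was 0.018 over the 10 genes and -0.0041 over all genes tested. Called higher were 0 of the 10 genes, also 0 at an unadjusted p under 0.05 and 0 by DESeq2 or limma-voom, against 12.9% of all genes tested.

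**Figure D1:**
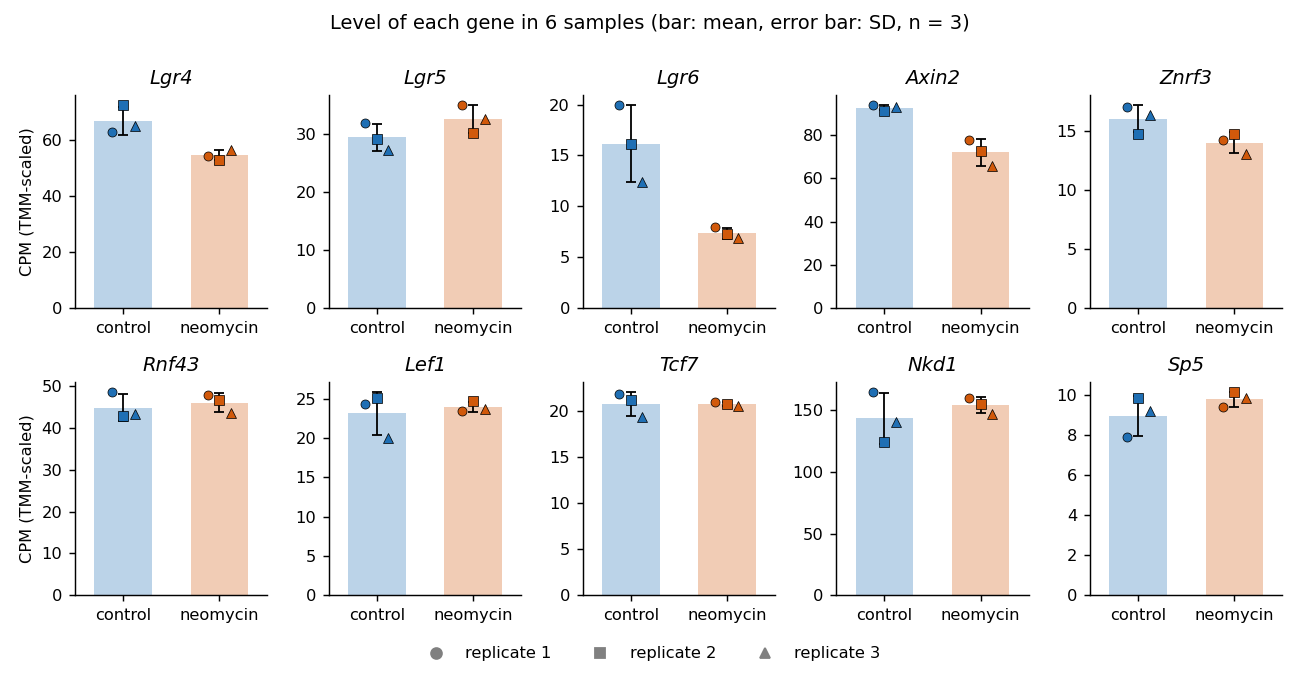
Level in CPM (TMM-scaled, linear axis from 0) of each of the 10 genes in the 3 control and 3 neomycin samples, with symbols for replicates, bars for means and error bars for the SD. Lgr6, Lgr4 and Axin2 are lower in all 3 neomycin samples than in any control sample, while the groups overlap for the other 7 genes. Among all genes tested, 43.5% had groups that did not overlap.

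Lgr6, the R-spondin receptor known in the neonatal cochlea from inner pillar cells, changed most. Its gene lies on chromosome 1 of mm10 from 134983301 to 135105276, on the minus strand. Its level was 20.0, 16.1 and 12.4 CPM in control replicates 1, 2 and 3 and 7.95, 7.24 and 6.89 CPM in neomycin replicates 1, 2 and 3. All neomycin samples lay below all control samples, and the control samples spread more widely, with an SD of 3.80 CPM against 0.539 CPM. The log2FC was -1.14 (SE 0.16, adjusted p = 0.000365, edgeR), that is a level 0.455 times that of control, with a 95% interval from 0.359 to 0.576. It was called under all 16 alternatives of the processing, with log2FC values between -1.28 and -0.90. In the same samples 21 of 22 HC genes, 6 of 8 endothelial genes and 4 of 10 neuron genes were called lower, while the SC genes were called in both directions. Their part in the fall of Lgr6 was not tested.

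Lgr5, the marker of SCs with progenitor capacity, was not called. It lies on chromosome 10 from 115450311 to 115587780. Its level was 31.8, 29.2 and 27.3 CPM in the control samples and 35.0, 30.2 and 32.6 CPM in the neomycin samples, so that neomycin replicate 2 lay below control replicate 1 and the groups overlapped. The log2FC was 0.15 (SE 0.09, adjusted p = 0.239, edgeR), and the 95% interval of the fold change ran from 0.968 to 1.27. The interval of this fit holds no fall to under 0.968 times the control level, a bound that holds for this fit only. Under the 16 alternatives the log2FC ran from 0.077, with total counts as the scaling, to 0.33. Of these alternatives, 14 did not call Lgr5.

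The value of Lgr5 depended on gene length. In these libraries the fold change fell with exon length over all genes, from a median log2FC of 0.21 among the 3965 genes with the shortest exon sequence to -0.18 among the 3965 with the longest, and Lgr5 has 10264 bases of annotated exon. With the trend on length removed in each sample, Lgr5 had a log2FC of 0.33 and was called higher (adjusted p = 0.00664, edgeR). With lengths from RefSeq-matched transcripts only, which give Lgr5 4714 bases, it was 0.28 (adjusted p = 0.0185, edgeR). The cause of the length trend was not tested.

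Lgr4, the broadly expressed R-spondin receptor, was the most abundant of the 3 receptors per length. It lies on chromosome 2 from 109917647 to 110014257. Its level was 63.0, 72.6 and 64.8 CPM in control and 54.4, 52.8 and 56.5 CPM after neomycin, and the groups did not overlap, which held for 43.5% of all genes tested. The log2FC was -0.29 (SE 0.07, adjusted p = 0.0126, edgeR), a level 0.817 times that of control. The call was lost without control replicate 2 (adjusted p = 0.0752), without neomycin replicate 2 (adjusted p = 0.0734) and with the length correction on RefSeq-matched exons, which gave a log2FC of -0.14 (adjusted p = 0.189), all by edgeR. With the length correction on all exons it was -0.21 (adjusted p = 0.0420, edgeR).

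The 3 receptors were also set against each other within each sample, as ratios of their counts, which do not depend on the scaling of libraries. These ratios were not corrected for the trend on exon length. Counts of Lgr5 were 1.59, 1.81 and 2.20 times those of Lgr6 in the control samples and 4.41, 4.17 and 4.73 times after neomycin. The ratio rose 2.39-fold between the group means on the log2 scale, and the groups did not overlap (exact two-sided permutation test, p = 0.1, the smallest that 3 against 3 allow, adjusted p = 0.125 over 5 ratios). For Lgr5 over Lgr4 the ratio was 0.505, 0.402 and 0.421 in control and 0.644, 0.571 and 0.577 after neomycin, a 1.35-fold rise with the same permutation p. For Lgr6 over Lgr4 it was 0.317, 0.222 and 0.191 in control and 0.146, 0.137 and 0.122 after neomycin, with a mean 0.566 times that of control and again the same permutation p. No ratio could pass 0.05 in this design, and the 3 ratios share their genes.

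**Figure D2:**
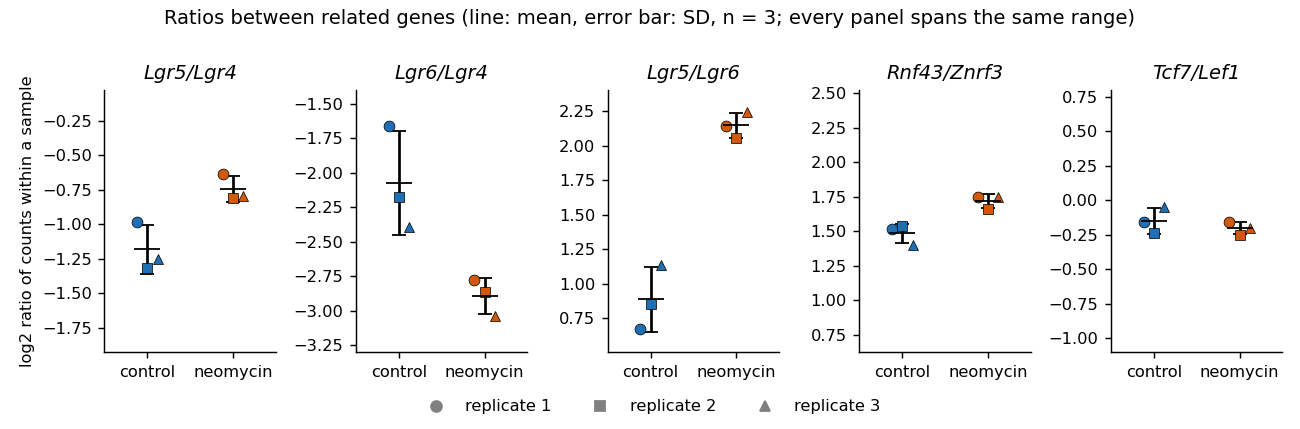
Log2 ratio of the counts of 2 related genes within each sample, for 5 pairs, with symbols for replicates, lines for means and error bars for the SD (n = 3), each panel spanning the same range. The groups are apart for the first 4 pairs, most widely for Lgr5/Lgr6, and overlap for Tcf7/Lef1. The first 3 pairs share their genes. For single genes the groups were apart for 43.5% of all genes tested, and the share over other pairs of genes was not computed.

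Among the feedback inhibitors, Axin2, a scaffold of the complex that degrades β-catenin and a widely used reporter of canonical Wnt activity, fell after neomycin. It lies on chromosome 11 from 108920349 to 108950783. Its level was 93.9, 91.3 and 92.9 CPM in control and 77.5, 72.8 and 65.5 CPM after neomycin. The control samples were within 3 CPM of each other and all above the neomycin samples. The log2FC was -0.37 (SE 0.08, adjusted p = 0.00416, edgeR), a level 0.776 times that of control with a 95% interval from 0.693 to 0.869. It was called under all 16 alternatives, with log2FC values between -0.43 and -0.26. An antisense gene, Gm11670, shares 209 of its exon bases on the opposite strand, and the strand setting of the counting is not known.

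Nkd1, which binds Dishevelled and restrains Wnt signaling, was the most abundant of the 10 genes, at 124 to 165 CPM in control and 147 to 160 CPM after neomycin, with the neomycin range inside the control range. Its log2FC was 0.10 (adjusted p = 0.441, edgeR), with a 95% interval of the fold change from 0.931 to 1.24. Its relative Nkd2, which was not among the 10, was called lower, at 32.6 ± 1.20 CPM in control and 25.0 ± 2.72 CPM after neomycin (SD, n = 3), with a log2FC of -0.38 (adjusted p = 0.00941, edgeR). The difference between Nkd1 and Nkd2 was not tested. Nkd1 lies on chromosome 8 from 88521354 to 88594884.

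The ligases of the R-spondin axis were not called. Rnf43 had 42.7 to 48.6 CPM in control and 43.6 to 47.9 CPM after neomycin, a log2FC of 0.04 with a 95% interval of the fold change from 0.912 to 1.15 (adjusted p = 0.755, edgeR). Znrf3 had 14.7 to 17.0 CPM in control and 13.0 to 14.7 CPM after neomycin, a log2FC of -0.20 with an interval from 0.749 to 1.02 (adjusted p = 0.164, edgeR). The top neomycin sample of Znrf3 lay about level with the lowest control sample, so the groups overlapped. Counts of Rnf43 were 2.65 to 2.90 times those of Znrf3 in control and 3.16 to 3.36 times after neomycin, a 1.18-fold rise without overlap (exact two-sided permutation test, p = 0.1, adjusted p = 0.125 over the 5 ratios). With the length correction on RefSeq-matched exons, Znrf3 had a log2FC of 0.05 and Rnf43 of 0.16, so the 2 genes lay closer together. The ratio itself was not corrected for length. Both genes are on chromosome 11, Rnf43 from 87662722 to 87735539 and Znrf3 from 5276324 to 5444847.

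Among the transcription factors, Tcf7 and Lef1, the TCF/LEF members that are themselves Wnt targets, and Sp5, a direct target that represses other Wnt targets, were not called. Tcf7 had 19.3 to 21.8 CPM in control and 20.6 to 21.0 CPM after neomycin, a log2FC of -0.0016 with a 95% interval of the fold change from 0.876 to 1.14 (adjusted p = 0.993, edgeR). Lef1 had 20.0 to 25.1 CPM in control and 23.4 to 24.7 CPM after neomycin, a log2FC of 0.05 with an interval from 0.892 to 1.20 (adjusted p = 0.743, edgeR). Sp5 had 7.88 to 9.83 CPM in control and 9.38 to 10.1 CPM after neomycin, a log2FC of 0.13 with an interval from 0.909 to 1.31 (adjusted p = 0.461, edgeR). The neomycin samples lay within the control range for Tcf7 and Lef1 and within or above it for Sp5. The ratio of Tcf7 to Lef1 within a sample was 0.848 to 0.968 in control and 0.843 to 0.895 after neomycin (exact two-sided permutation test, p = 0.4, adjusted p = 0.4 over the 5 ratios). Tcf7 lies on chromosome 11 from 52252371 to 52283014, Lef1 on chromosome 3 from 131110471 to 131224356 and Sp5 on chromosome 2 from 70474923 to 70477729. An antisense gene, Gm43352, shares 1208 exon bases with Lef1. Tcf7 and Lef1 are also genes of T lymphocytes, and of 10 T lymphocyte genes only 3 passed the filter on low counts, with Cd3d at 0 counts in all 6 samples and Cd3e at 3 to 16 counts. All 10 T lymphocyte genes together summed to 9.30 to 12.1 CPM in control and 9.58 to 12.9 CPM after neomycin. Most of this sum was Lck, with 9.59 ± 1.35 CPM in control and 9.83 ± 1.64 CPM after neomycin (SD, n = 3).

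**Figure D3:**
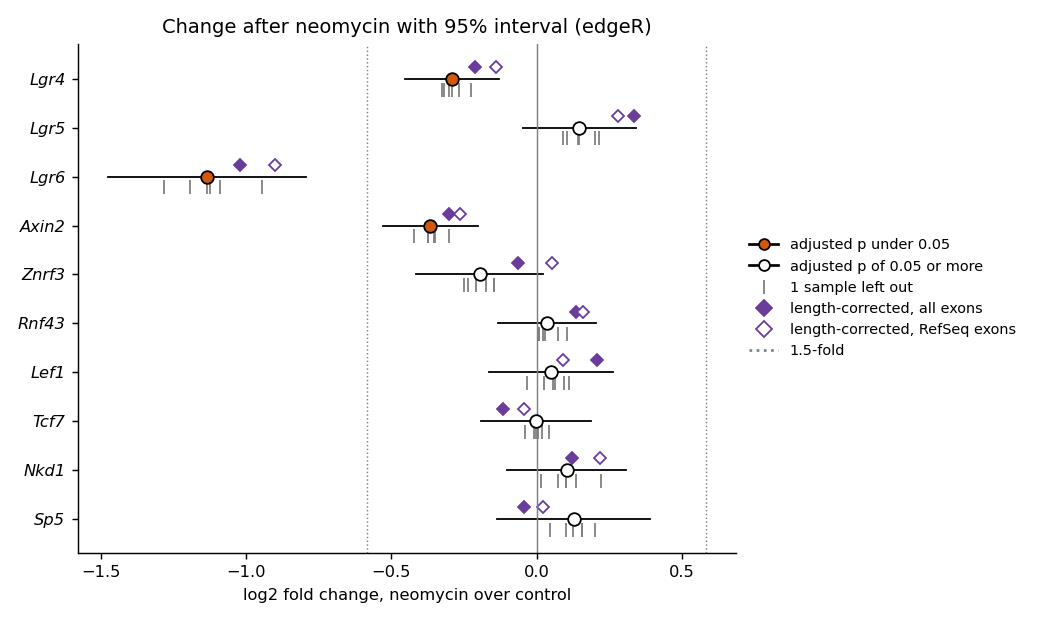
Log2 fold change of neomycin over control for each of the 10 genes (circles, filled where called) with its 95% interval (lines), the values with 1 sample left out (ticks) and those with the exon length correction, from all exons (filled diamonds) or RefSeq-matched exons (open diamonds). Lgr6 lies past the 1.5-fold line, Lgr4 and Axin2 lie between it and 0, and Lgr5 moves to the right with the length correction.

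Divided by exon length, the levels of the 10 genes spanned from 2.03 to 31.5 CPM per kb in control. The order in control, over the exons of all annotated transcripts, was Nkd1, Axin2, Lgr4, Tcf7, Rnf43, Sp5, Lgr5, Lef1, Lgr6 and Znrf3. Nkd1 stood at 31.5 ± 4.50, Axin2 at 16.8 ± 0.236 and Lgr4 at 11.4 ± 0.864 CPM per kb (SD, n = 3). From Lgr5 downward the neighbours did not differ beyond their spread, with 2.87 ± 0.223 for Lgr5, 2.63 ± 0.313 for Lef1, 2.36 ± 0.555 for Lgr6 and 2.03 ± 0.148 CPM per kb for Znrf3. After neomycin Lgr6 was last, at 1.07 ± 0.0787 CPM per kb, with Znrf3 at 1.77 ± 0.114. The middle of the order depended on which transcripts give the length. With RefSeq-matched exons Lgr5 stood at 6.24 ± 0.486 and Lef1 at 6.60 ± 0.784 CPM per kb, both above Sp5 at 4.27 ± 0.473, and Rnf43 stood above Tcf7.

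Promoter windows were searched for the letters that TCF/LEF factors bind. In RefSeq's GRCm38.p6 annotation, windows from 250 bases before to 50 bases after a start site were found for 8 of the 10 genes, 13 windows in all, and none was found for Lgr5 and Znrf3. The motifs searched, on both strands, were the TCF/LEF core form CTTTGAA, its variant CTTTGAT, the form CTTTGTA and also the form CTTTGTT. The windows of Sp5, Axin2 and Lgr6 are shown, in the direction of the gene, because Sp5 alone had more than 1 match and the other two genes fell under all alternatives. Capitals mark the matches.
Sp5, chr2:70474673-70474972, plus strand: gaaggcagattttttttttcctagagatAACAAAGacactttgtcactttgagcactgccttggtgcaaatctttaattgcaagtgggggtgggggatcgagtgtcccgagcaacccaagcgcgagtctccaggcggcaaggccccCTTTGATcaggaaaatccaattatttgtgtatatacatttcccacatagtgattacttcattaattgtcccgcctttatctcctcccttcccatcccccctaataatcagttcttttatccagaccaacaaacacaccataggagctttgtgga
Axin2, chr11:108920099-108920398, plus strand: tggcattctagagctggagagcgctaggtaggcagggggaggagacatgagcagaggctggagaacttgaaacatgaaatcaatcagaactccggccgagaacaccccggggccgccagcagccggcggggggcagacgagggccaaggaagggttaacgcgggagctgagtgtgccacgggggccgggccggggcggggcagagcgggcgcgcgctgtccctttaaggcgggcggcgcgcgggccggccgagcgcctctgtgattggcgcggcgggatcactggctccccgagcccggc
Lgr6, chr1:135105227-135105526, minus strand: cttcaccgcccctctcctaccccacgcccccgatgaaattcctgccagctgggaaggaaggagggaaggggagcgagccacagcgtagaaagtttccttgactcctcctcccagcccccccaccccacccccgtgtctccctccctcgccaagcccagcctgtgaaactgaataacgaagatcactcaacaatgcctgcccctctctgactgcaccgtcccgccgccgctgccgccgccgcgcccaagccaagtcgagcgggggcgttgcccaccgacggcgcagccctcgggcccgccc

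The Sp5 window held 2 matches, CTTTGTT on the opposite strand from base 29 and CTTTGAT on the gene's strand from base 147 of the window. A further window of Lef1 held 1 match, so 2 of the 13 windows had any, while 16.9% of all 32851 promoter windows of the table had one. The windows of Axin2 and Lgr6 had no match to these letters, and neither did those of Lgr4, Rnf43, Tcf7 and Nkd1. These matches describe the letters of a short window and not binding.

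The other genes of the Wnt pathway, 83 genes in 7 lists by role, were read from the same fit. Of these, 73 were tested and 22 were called, 7 higher and 15 lower, a share of 30.1% beside 29.0% of all genes tested. Without control replicate 2 the number was 13 and without neomycin replicate 2 it was 12.

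Of the R-spondins, the ligands of the 3 Lgr receptors, 0 of 3 tested genes were called by edgeR, and 0 by DESeq2 or limma-voom. At an unadjusted p under 0.05, 2 were higher by each tool, and 3 of the 16 alternatives called 1 of them. Rspo2 was called higher with the length correction on all exons (log2FC 0.22, adjusted p = 0.0338, edgeR) and on RefSeq-matched exons (log2FC 0.20, adjusted p = 0.0447, edgeR). Rspo1 was called higher without control replicate 1 (log2FC 1.02, adjusted p = 0.0372, edgeR). Rspo2 was the most abundant by CPM, with 41.4 ± 2.30 in the control samples and 46.8 ± 2.17 in the neomycin samples (SD, n = 3), a log2FC of 0.18 (adjusted p = 0.0980, edgeR). Rspo1 had 48 to 108 counts in control and 93 to 120 after neomycin, a log2FC of 0.70 (adjusted p = 0.0927, edgeR). Rspo4 had 0 to 4 counts per sample and was not tested. Of 13 Wnt ligands tested, Wnt7a was lower, with 77.0 ± 4.43 CPM in the control samples and 61.3 ± 4.10 in the neomycin samples (SD, n = 3), with a log2FC of -0.33 (adjusted p = 0.00754, edgeR), and Wnt6, at 24 to 63 counts in control and 71 to 118 after neomycin, was higher, a call that was lost without neomycin replicate 2.

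Of the 12 Frizzled receptors and LRP co-receptors, 5 were called by edgeR, all lower, with a median log2FC of -0.23, where 16.1% of all genes tested were called lower. The number was 3 without control replicate 1, control replicate 2, neomycin replicate 2 or neomycin replicate 3. With the length correction Fzd3 was called higher, with a log2FC of 0.26 on all exons and 0.35 on RefSeq-matched exons, and Fzd2 was called higher on the latter, with 0.19. Fzd4, a receptor for the ligand norrin as well as for Wnts, with a known role in blood vessels, had 39.9 ± 6.42 CPM in control and 19.0 ± 4.81 CPM after neomycin (SD, n = 3), a log2FC of -1.07 (adjusted p = 0.000586, edgeR). Lrp5, a co-receptor, had 81.7 ± 6.03 CPM in control and 51.8 ± 2.82 CPM after neomycin, with -0.66 (adjusted p = 0.000120, edgeR). Both were called under all 16 alternatives. Fzd6 and Fzd9 had -0.30 each. Fzd6 was not called without control replicate 2 or neomycin replicate 2, nor Fzd9 without control replicate 1 or neomycin replicate 3. Fzd1 had -0.22 and lost its call under 5 of the 16 alternatives.

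Of 10 secreted inhibitors tested, edgeR called 4, all higher, where 12.9% of all genes tested were called higher. The number was 2 without control replicate 2 or neomycin replicate 2 and with the length correction on RefSeq-matched exons. The 2 most abundant by CPM, Sfrp1 and Dkk3, had log2FC values of -0.20 and -0.21 (adjusted p = 0.104 and 0.0811, edgeR), both with an unadjusted p under 0.05. Dkk3 was called lower by DESeq2, and Dkk3 or Sfrp1 or both were called lower under 5 of the 16 alternatives in all. The summed level of the list was 1525 to 1636 CPM in control and 1375 to 1533 CPM after neomycin. Notum, a Wnt deacylase that is itself a Wnt target, rose from 33.9 ± 1.31 to 48.7 ± 4.48 CPM (SD, n = 3), a log2FC of 0.52 (adjusted p = 0.000919, edgeR), and Sfrp4 had 0.59 (adjusted p = 0.0106, edgeR). Notum and Sfrp4 were called under all 16 alternatives, while Wif1 and Sostdc1 lost their calls with either length correction and with 3 and 5 of the 6 single samples left out.

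Within the cell, 4 of 13 genes of β-catenin degradation and of the Dishevelled family were called, beside 29.0% of all genes tested. These were Tnks at -1.27, Dvl3 at -0.89, Gsk3b at -0.33 and Dvl2 at 0.20 in log2FC. Tnks encodes tankyrase, which marks Axin for degradation. Ctnnb1, the gene of β-catenin, had a log2FC of -0.03 (adjusted p = 0.809, edgeR) and Axin1, the constitutive relative of Axin2, had -0.04 (adjusted p = 0.698, edgeR). Beside the same 29.0%, 4 of 11 nuclear partners were called, with Bcl9l at -0.82, Bcl9 at -0.35, Tle3 at -0.25 and Tle2 at 0.30. With either length correction Gsk3b, Bcl9 and Tle3 were no longer called. With single samples left out, Gsk3b and Tle2 lost their calls in 3 of 6 fits each, Bcl9 in 4, Tle3 in 5 and Dvl2 in 6. The number called fell to 2 of the degradation and Dishevelled genes and to 1 of the nuclear partners without control replicate 2 or neomycin replicate 2, and to 2 in both lists without control replicate 1. It was also 2 of the nuclear partners without neomycin replicate 1 or neomycin replicate 3. Tnks, Dvl3 and Bcl9l were called under all 16 alternatives. Of 11 other β-catenin target genes 3 were called, all lower, where 16.1% of all genes tested were called lower. These were Kremen1 at -0.45, Ccnd1, the gene of cyclin D1, at -0.40 and Nkd2. Ccnd1 was not called without control replicate 2. Myc had a log2FC of -0.0017 and Cd44 of -0.0044, with adjusted p-values of 0.995 and 0.978 (edgeR). Of 12 proliferation genes, 5 were called lower and 0 higher, with a median log2FC of -0.23, where 16.1% of all genes tested were called lower. Their summed level was 311 to 359 CPM in control and 288 to 331 CPM after neomycin, so the groups overlapped. Calls in this list under the alternatives were not tested.

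**Figure D4:**
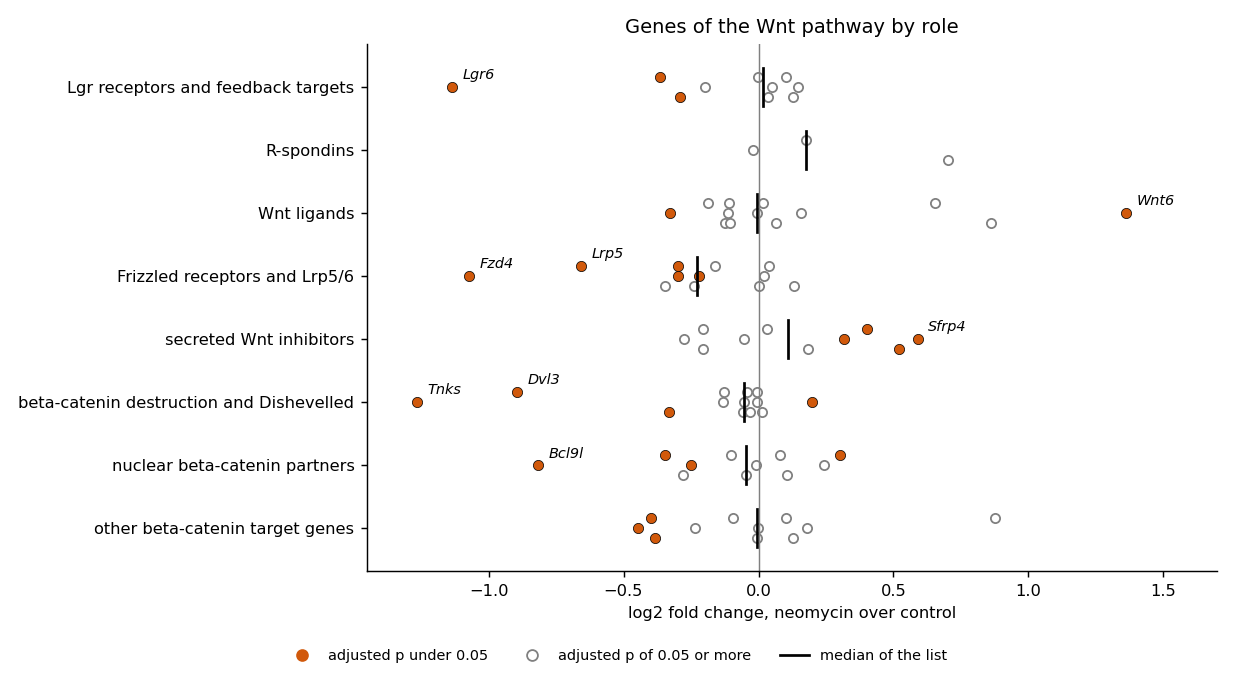
Log2 fold change of neomycin over control for every tested gene of 8 lists of the Wnt pathway by role, filled where called, with the list median as a black line and names for genes called with a fold change over 1.5. By edgeR without a length correction, the 5 called Frizzled and LRP genes are lower and the 4 called secreted inhibitors higher, with other members of both lists on the opposite side of 0, and the medians lie between -0.23 and 0.18.

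Over the 6 samples, the 5 genes whose log2 CPM followed Lgr5 most closely, among 10374 genes with a mean of at least 10 CPM, were Ggcx, Mcc, Naalad2, Fam21 and Gtf2h3, with Pearson's r of 0.992, 0.981, 0.980, 0.976 and 0.969. In all, 52 genes had an r over 0.9. These values describe 6 points that share their libraries. How many genes would reach such an r without a link to Lgr5 was not tested.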

How the data were processed

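RNA-seq was performed on 3 control and 3 neomycin samples of cochlear explants. Reads were processed by the authors with CASAVA 1.8 and Trimmomatic 0.23 and mapped to mm10 with HISAT2. HTSeq with UCSC's gene models for that build gave the deposited counts, whole reads per gene symbol and not normalized. The strand setting and the handling of multi-mapped reads are not given in the sources used here. Every column belongs to a mapped sample.

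Counts were filtered with filterByExpr, scaled by TMM and tested with edgeR 4.0.16 under R 4.3.3 (quasi-likelihood test, Benjamini-Hochberg over 15988 genes). Each SE is the absolute log2FC over the root of its F statistic. Exact permutation tests used scipy 1.17.1. Alternatives used DESeq2 1.42.0, limma 3.58.1, other scalings and filters, the replicate number as a block, single samples left out, and a lowess correction (span 0.3) on exon length, repeated with RefSeq-matched exons as an alternative chosen after seeing the data. Coordinates and exons are from GENCODE M21 on mm10. On simulated data the test recovered 178 of 200 changed genes among 15988, with 9 false calls. Recovery at the size of change seen in each of the 10 genes was not tested. Intervals cover the spread between samples. The 10 genes and the lists were chosen with earlier results of these data known. In the Wnt lists, called genes were named, at most the 4 with the smallest p per list. Ctnnb1, Axin1, Myc, Cd44, Fzd1, Fzd2, Fzd3, Sfrp1, Dkk3, the R-spondins and the supporting cell genes other than Sox2 were named after their values were seen.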

Additional observations from a re-analysis of the deposited data

How the results depend on the processing

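Lgr6 and Axin2 kept their direction and their call under all 16 alternatives, and the number of the 10 genes called lower stayed within 1.5 times of 3. With the exon length correction 1 of the 10 genes, Lgr5, was called higher, with lengths from all exons and also with those from RefSeq-matched exons. Of the other Wnt pathway genes, between 12 and 23 were called with single samples left out, against 22. The log2FC values that turned sign were small and not called. With total counts as the scaling Rnf43 had -0.032 and Lef1 -0.023, with the length correction Sp5 had -0.042, and with RefSeq-matched exons Znrf3 had 0.052. Tcf7 had 0.0043 with the DESeq2 test, 0.0046 with its size factors, 0.00020 with the replicate block and 0.020 with upper quartile scaling. With single samples left out Lef1 ran from -0.035 to 0.11 and Tcf7 from -0.040 to 0.042. The cause was not tested. Total counts as the scaling moved the split over all genes from 2058 higher and 2571 lower to 1349 and 3200.

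Same-numbered samples of the groups had correlations of their deviations of 0.17, 0.03 and 0.09, all positive. The labels do not say whether the numbers are pairs, and the main fit did not take them as pairs. With the replicate number as a block, edgeR called 6014 genes against 4629, the same number of the 10 genes and 26 of the other Wnt pathway genes. Control replicate 2 correlated slightly better with neomycin replicate 3 (0.032) than with neomycin replicate 2 (0.026). Every other sample correlated best with its own number. Without control replicate 2 or neomycin replicate 2, edgeR called 2567 and 2518 genes, without neomycin replicate 3 it called 3001, and with the length correction on RefSeq-matched exons 3105. Depth did not limit the 10 genes, while 10 of the other 83 Wnt pathway genes had too few counts to test.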
